A study of Anas platyrhynchos with 2 samples.

Results

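The let-7 family was taken from a table of 288 mature miRNAs sequenced from duck duodenum, as all rows named gga-let-7, with chicken names. The rule found 14 rows under 9 letters (a, b, c, d, f, g, i, j and k), and no row was named miR-98. The ducks were female Jingjiang ducks, an egg-laying domestic breed, 1 day of age, and the study divided 20 of them between both groups. All were placed in carry cases for hatchlings. The transported group then spent 8 h in a vehicle on ordinary and bumpy roads at 40 to 70 km per h, and the control group stayed behind. Each group is represented by 1 small RNA library, named CC or CT in the table, and the number of ducks pooled for it is not stated. The final letters of these names were taken to stand for control and transported, although no label says so. Each direction below is therefore given as CT against CC. With the opposite reading of the names, only its meaning as transported against control would reverse.

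let-7 was first described in Caenorhabditis elegans as a gene that times the passage from larval to adult cell fates. A miRNA guides an Argonaute protein to messenger RNAs that pair with its seed, and mammalian let-7 represses genes of proliferation and of the immature state, among them HMGA2 and LIN28. LIN28 in turn binds let-7 precursors and blocks their maturation, so mature let-7 generally rises as tissues differentiate, and in mouse intestinal epithelium the pair has been linked to growth and stemness. Messenger RNAs were not measured here.

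The mature sequences are shown first, since the letters differ from each other by so few bases that reads are separated only by them. They are those of the deposited table, written 5′ to 3′ with the seed in capitals (bases 2 to 8), and comprise the rows that carried nearly all counts, the row named let-7d and a predicted row, novel_130, that shares the seed.
gga-let-7f-5p: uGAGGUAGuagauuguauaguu
gga-let-7i: uGAGGUAGuaguuugugcugu
gga-let-7g-5p: uGAGGUAGuaguuuguacagu
gga-let-7a-5p: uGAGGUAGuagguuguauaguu
gga-let-7c-5p: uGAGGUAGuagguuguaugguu
gga-let-7b: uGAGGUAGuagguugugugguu
gga-let-7k-5p: uGAGGUAGuagauugaauaguu
gga-let-7d: aGAGGUAGuggguugcauagu
novel_130: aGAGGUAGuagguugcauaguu

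The seed GAGGUAG was at bases 2 to 8 of 8 let-7 rows, those of the 5p arm, and 1 further row of the table carried it there. No other row held these letters at any position. The rows differ from let-7a-5p outside the seed, counting positions from 1 at the 5′ end of let-7a-5p. let-7c-5p differs by A19G, let-7f-5p by G12A and let-7b by A17G and A19G. let-7k-5p has the G12A change of let-7f-5p and also U16A. let-7g-5p differs by G12U and U18C, and let-7i by G12U, A17G, U18C and A19U. The row let-7d differs by U1A, A10G and U16C.

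The remaining 6 rows are 3p arms, which come from the other strand of the hairpin, lack the let-7 seed and fall into 4 seed groups. They are shown because some of them, such as let-7a-2-3p and let-7j-3p, separate hairpins whose 5p arms are the same.
gga-let-7a-3p: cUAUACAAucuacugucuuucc
gga-let-7f-3p: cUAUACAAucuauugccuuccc
gga-let-7j-3p: cUAUACAGucuauugccuuccu
gga-let-7a-2-3p: cUGUACAAccuccuagcuuucc
gga-let-7c-3p: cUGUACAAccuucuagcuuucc
gga-let-7g-3p: cUGUACAGgccacugccuugcc

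Rows and genes do not correspond fully. The sequence of let-7a-5p was found unchanged in 3 of the listed hairpins, those of let-7a-2, let-7a-3 and let-7j. Reads from these copies cannot be separated in that row. Only listed hairpins were searched, so further copies may also add to its counts. The sequence of let-7a-3p was found in 2 hairpins, those of let-7a-3 and let-7k. let-7j was therefore represented by its 3p arm alone, and let-7k by its 5p arm alone.

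The family as a whole took nearly the same share of the miRNA pool in both libraries. The table held 5772509 counts in CC and 5272666 in CT. The 14 rows together had 224890 counts in CC and 204510 in CT, which is 3.90% of the total in CC (exact 95% interval 3.88 to 3.91%) and 3.88% in CT (3.86 to 3.90%). In CPM, the count scaled to 1000000 counts per library, the sum was 38959 in CC and 38787 in CT. The ratio of CT to CC was 0.996 (exact conditional 95% interval 0.990 to 1.002). Since each group has a single library, no p-value could be formed, and all intervals cover counting error only, so that they describe these libraries and not the effect of transport. The log2 ratio of the family, -0.0064, was between -0.097 and 0.053 with the other scalings tried, so the direction of so small a difference is not set by the data.

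let-7f and let-7i led the family in both libraries, and the order of the letters was the same in CC and CT down to let-7k. let-7f-5p had 74543 counts in CC and 72216 in CT (12913 and 13696 CPM), which made it the seventh most abundant row in CC and the sixth in CT. let-7i had 67884 and 57749 counts (11760 and 10953 CPM). let-7f and let-7i together held 63.3% of the family in CC (63.1 to 63.5%) and 63.6% in CT (63.3 to 63.8%). In mean CPM the rows next above let-7f-5p were miR-194, of intestinal epithelium, and miR-21-5p. The rows next below were miR-146b-5p, a miRNA induced in inflammation, and let-7i itself.

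Behind them came let-7g-5p with 39209 counts in CC and 38026 in CT (6792 and 7212 CPM) and let-7a-5p with 29309 and 25794 (5077 and 4892 CPM). With these added, 4 letters held 93.8% of the family in CC and 94.8% in CT. A gap of several-fold separated them from the next letters. let-7c-5p had 4962 counts in CC and 4034 in CT (859.6 and 765.1 CPM), let-7b had 4945 and 3801 (856.6 and 720.9 CPM) and let-7k-5p had 3938 and 2799 (682.2 and 530.9 CPM). let-7c and let-7b were not separated in CC beyond counting error, at 2.21% of the family (2.15 to 2.27%) and 2.20% (2.14 to 2.26%). In CT they held 1.97% (1.915 to 2.036%) and 1.86% (1.800 to 1.918%), intervals that overlapped only at their ends. An overlap so small does not show that the 2 letters were equal in CT. The other neighbours in the order from let-7f to let-7k had intervals that did not overlap in either library.

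**Figure D1:**
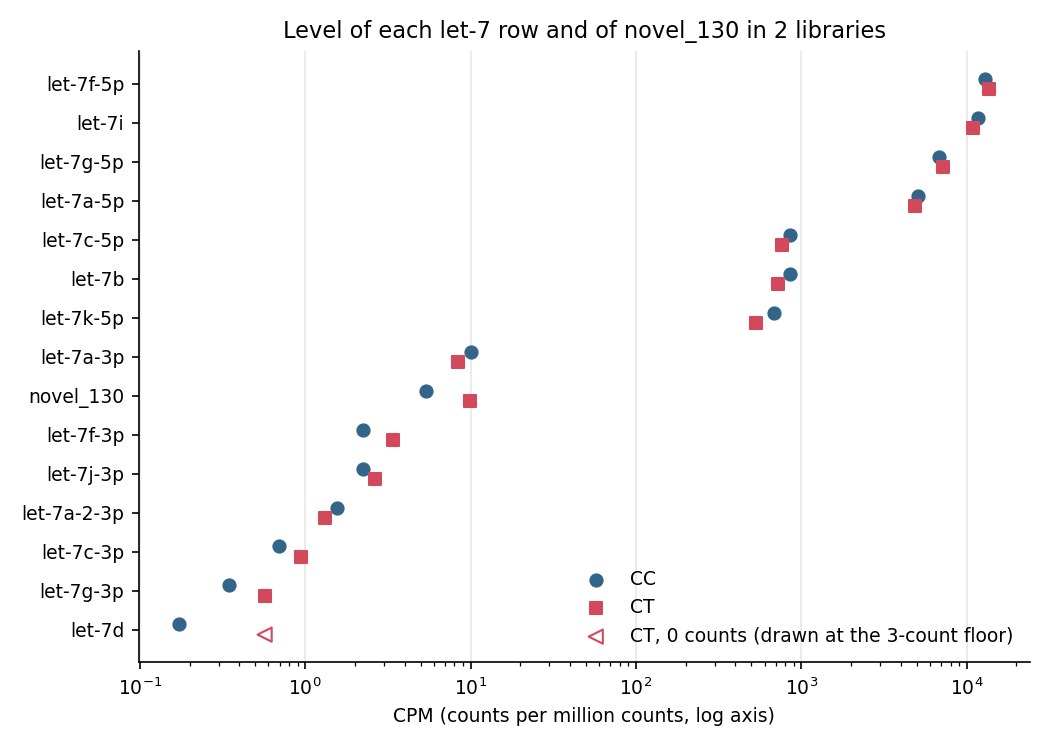
Level of each let-7 row and of novel_130 in CPM on a log axis, with CC as circles and CT as squares, 1 library each; the open triangle marks a count of 0 drawn at the floor of 3 counts. The 7 abundant rows, from 531 to 13696 CPM, stand far above the 3p arms and let-7d, which lie at or below 10.0 CPM.

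Grouping the seed-bearing rows by base 12, the first position after the seed at which the 7 abundant rows differ, divided the family into 3 parts. The rows with U at that base, let-7g-5p and let-7i, held 47.6% of the family in CC and 46.8% in CT. The rows with A, let-7f-5p and let-7k-5p, held 34.9% and 36.7%, and the rows with G, let-7a-5p, let-7b, let-7c-5p and let-7d, held 17.4% and 16.4%.

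The composition of the family differed by a few percentage points between the libraries. These shares are taken within the family, so no scaling of the libraries affects them. let-7f held 33.2% of the family in CC and 35.3% in CT, 2.17 points higher in CT (95% Newcombe interval 1.88 to 2.45). let-7g held 17.4% and 18.6%, 1.16 points higher (0.929 to 1.39). In the opposite direction, let-7i held 30.2% and 28.2%, a difference of -1.95 points (-2.22 to -1.68), and let-7a held 13.1% and 12.6%, a difference of -0.42 points (-0.625 to -0.224). The 3 rarer letters were each lower in CT. let-7c held 2.21% and 1.97%, let-7b 2.20% and 1.86%, and let-7k 1.75% and 1.37%. Letters c, b, k, j and d together took 6.16% of the family in CC (6.07 to 6.26%) and 5.21% in CT (5.11 to 5.31%).

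**Figure D2:**
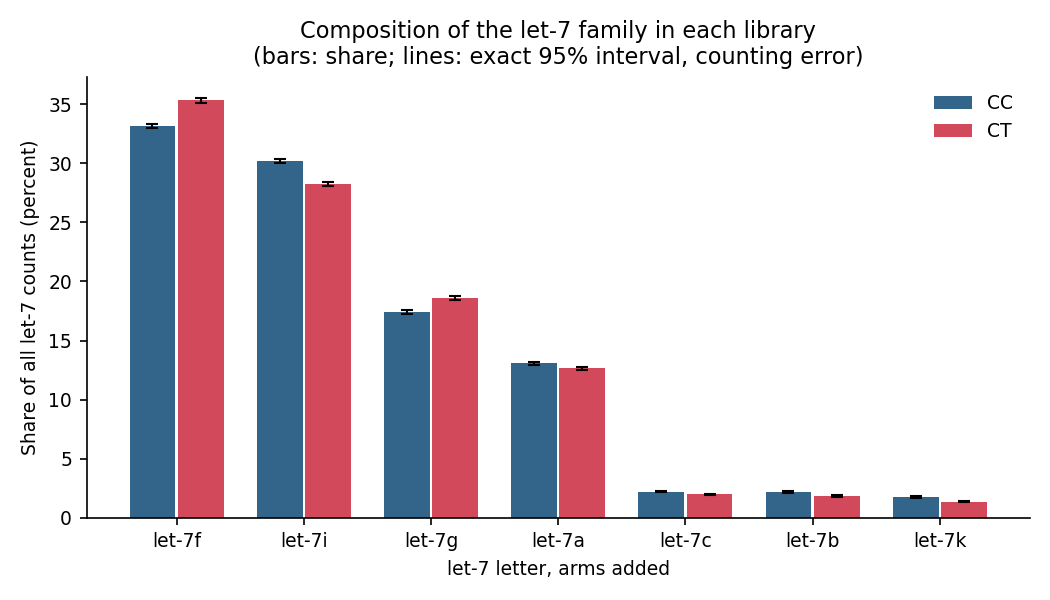
Share of all let-7 counts held by each letter with its arms added, in percent, for CC and CT; bars give the share and lines its exact 95% interval for counting error. let-7f and let-7g hold more of the family in CT (35.3% and 18.6%) than in CC (33.2% and 17.4%), and the other 5 letters drawn hold less.

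Set against the whole library, no let-7 row with enough counts was far apart between CC and CT. A minimum of 50 counts over both libraries was reached by 8 of the 14 rows, the 7 abundant ones and let-7a-3p. None of the 8 was 2-fold apart, beside 7.38% of the 149 rows of the table that reached the minimum, and none was 1.5-fold apart, beside 22.1%. With only 8 rows, these counts are not read as particular to the family. The depths also differ, since the 7 abundant rows had 6737 or more counts over both libraries and the 149 rows begin at 50. let-7f-5p was 1.06-fold higher in CT (1.05 to 1.07) and let-7g-5p also 1.06-fold higher (1.05 to 1.08). let-7k-5p was 1.29-fold lower (1.22 to 1.35), let-7b 1.19-fold lower (1.14 to 1.24) and let-7c-5p 1.12-fold lower (1.08 to 1.17). let-7i was 1.07-fold lower (1.06 to 1.09) and let-7a-5p 1.04-fold lower (1.02 to 1.06).

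By direction, 2 of the 8 rows were higher and 6 lower in CT, where 53% of the 149 rows were higher and 47% lower. The exact interval of the ratio lay above 1 for 2 rows and below 1 for 5, beside 34.9% and 33.6% of all 149 rows (68.5% in either direction). Such intervals narrow as counts rise, so this count also depends on the depth of the rows. The median log2 ratio of the 8 rows was -0.14, and that of all 149 was 0.02 with an interquartile range from -0.25 to 0.36. let-7k-5p (log2 ratio -0.36) and let-7a-3p (-0.27, interval -0.87 to 0.32) lay below that range, let-7b stood at its lower end and the other 5 rows lay inside it. Of these directions, that of let-7a-5p depended on the scaling, with a log2 ratio of -0.05 that was 0.0058 when the 10 most abundant miRNAs were left out of the totals. Those of let-7f-5p and let-7g-5p (0.08 and 0.09) were -0.0054 and -0.0038 without novel_1 in the totals, the second most abundant row in CC.

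**Figure D3:**
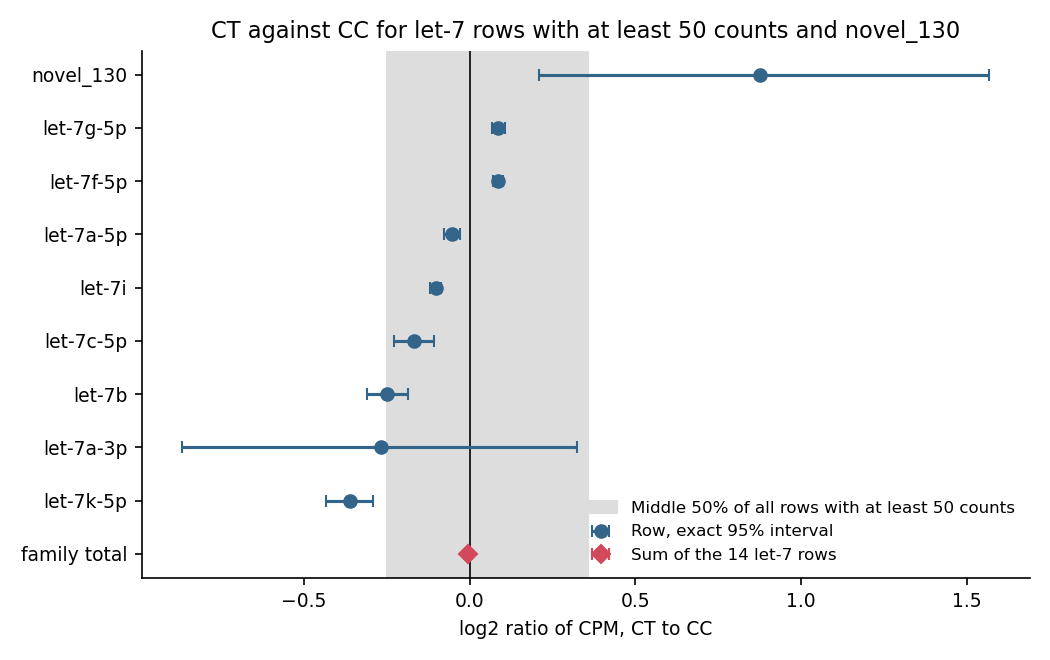
Log2 ratio of CPM, CT to CC, for the 8 let-7 rows with at least 50 counts, for novel_130 and for the sum of the family, with exact 95% intervals for counting error; the grey band is the middle 50% of all 149 rows with at least 50 counts. The family total sits at -0.0064 while its rows spread from -0.36 (let-7k-5p) to 0.09 (let-7g-5p), and novel_130 sits apart at 0.88 with a wide interval.

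Most abundant rows that are 1 base apart stood in a different proportion in each library. let-7k-5p, which differs from let-7f-5p by U16A, had 5.28% of the counts of let-7f-5p in CC and 3.88% in CT. let-7c-5p had 16.9% and 15.6% of the counts of let-7a-5p, and let-7a-5p had 39.3% and 35.7% of those of let-7f-5p. let-7b had 99.7% of the counts of let-7c-5p in CC and 94.2% in CT, and only for this pair did the intervals of the ratios of CT to CC overlap. How reads with a mismatch were assigned among such rows is not stated in the sources, and its part in these proportions was not tested.

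The row named let-7d was nearly empty, with 1 count in CC and 0 in CT, both under the floor of 3 counts (0.520 and 0.569 CPM), so no ratio was formed. The predicted row novel_130 has the same seed and differs from let-7d by G10A over the 21 bases they share, with 1 more base at the 3′ end. The hairpins are shown for comparison, that of let-7d as the table names it for chicken and that of novel_130 as predicted on scaffold KB742849.1 within the interval from 550961 to 551068 on the plus strand. No build is named, and the interval is longer than the 76 bases of the hairpin given for it. Capitals mark the letters GGAG.
let-7d: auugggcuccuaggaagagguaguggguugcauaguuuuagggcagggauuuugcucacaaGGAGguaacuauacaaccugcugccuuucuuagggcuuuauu
novel_130: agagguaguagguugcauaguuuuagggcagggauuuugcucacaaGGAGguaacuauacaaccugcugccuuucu

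All 76 bases of the novel_130 hairpin aligned to the let-7d hairpin without gaps, and 75 were the same (98.7%). The single difference, G25A counted from the first base of the let-7d hairpin, is the same base as that in the mature row. The next most similar let-7 hairpin, let-7a-3, had 58.9% identity over 73 bases. novel_130 had 31 counts in CC and 52 in CT (5.37 and 9.86 CPM), 1.84-fold higher in CT (1.16 to 2.96), which is under 2-fold. With it counted as a family member, novel_130 made up 0.014% of the family in CC and 0.025% in CT, so the letter was rare in both libraries under either row.

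The 5p arm held nearly all counts of every letter for which both arms were listed. let-7g-5p had 39209 counts beside 2 of let-7g-3p in CC and 38026 beside 3 in CT, so that the 3p arm made up 0.0051% (0.00062 to 0.018%) and 0.0079% (0.0016 to 0.023%) of the letter. let-7f-3p had 13 counts in CC and 18 in CT, 0.017% and 0.025% of its letter. let-7c-3p had 4 and 5 counts, 0.081% (0.022 to 0.206%) and 0.124% (0.040 to 0.289%). The 3p share was highest for let-7a, at 0.228% (0.177 to 0.290%) for CC and 0.197% (0.147 to 0.259%) for CT, and most of its 3p counts were those of let-7a-3p, 58 and 44, a sequence shared with the let-7k hairpin. let-7a-2-3p added 9 and 7 counts, and let-7j-3p, whose 5p arm is counted with let-7a-5p, had 13 and 14. The intervals of CC and CT overlapped for each of the 4 letters, so no difference in arm balance was detectable at this depth.

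All 6 of the 3p rows together had 99 counts in CC and 91 in CT, 0.044% of the family in each library. For 66 other hairpins that had both arms listed and 50 or more counts, the median share of the rarer arm was 0.568% in CC and 0.788% in CT. In CC 21 of the 66, and in CT 14, had a share below that of let-7a, the highest value among the 4 let-7 letters. The intervals of let-7a and let-7c overlapped in both libraries, so the order of these letters is not settled. A one-sidedness like that of let-7a is thus seen in other hairpins of the table too. The median 3p share of the 4 letters was lower, at 0.049% in CC and 0.074% in CT. The other hairpins below it were not counted, but they included miR-100 (0.0027% in CC and 0.0036% in CT) and miR-21 (0.016% and 0.012%). The median of the 66 lay above it in both libraries. The 5p arm led in 40 of the 66.

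**Figure D4:**
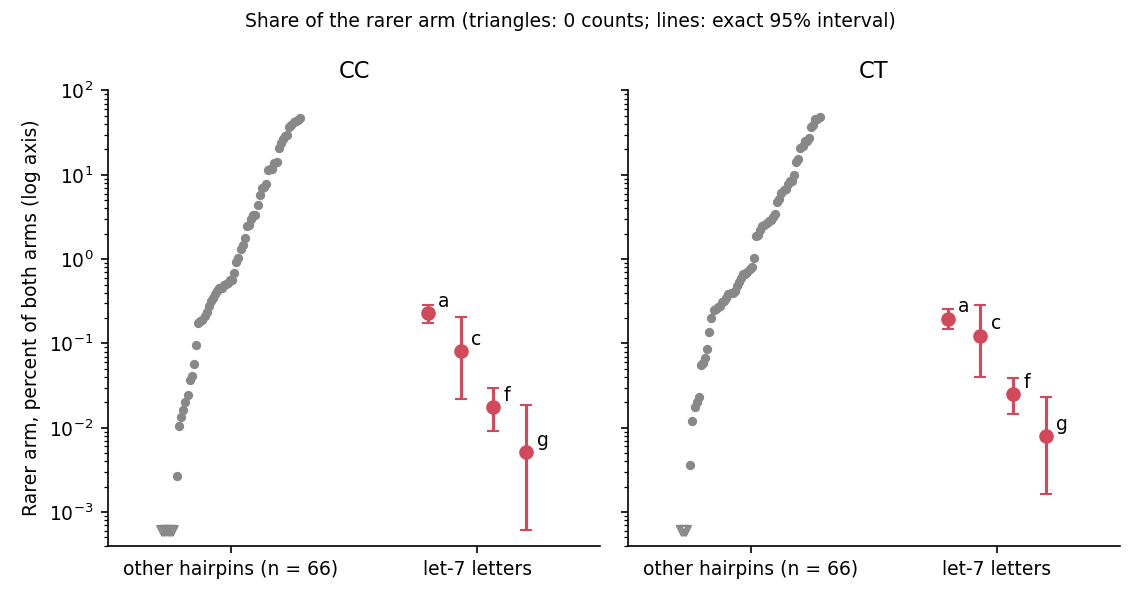
Share of the rarer arm in the counts of both arms, in percent on a log axis, for 66 other hairpins (grey, sorted; triangles have 0 counts and are drawn near the lower edge) and for let-7a, let-7c, let-7f and let-7g (red, with exact 95% intervals). The let-7 letters lie from 0.0051% to 0.228% in CC and from 0.0079% to 0.197% in CT, in the lower part of the range of the other hairpins. Among the 66, the miR-215 hairpin lies below the axis and is not seen (8.5e-05% in CC and 4.4e-05% in CT).

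The listed hairpins were also searched for GGAG, the letters that LIN28 is known to bind in the terminal loop of mammalian let-7 precursors. The stretch searched ran from the end of the 5p arm to the letters UAACU near the start of the 3p strand. GGAG stood 1 base before UAACU in 8 of 11 hairpins, those of let-7a-2, let-7b, let-7c, let-7d, let-7f, let-7g, let-7i and novel_130. Without novel_130, whose hairpin is nearly that of let-7d, it did so in 7 of the 10 named hairpins. In let-7j and let-7k it stood elsewhere in the loop, 23 and 19 bases before UAACU, and let-7a-3 held no GGAG. The hairpins below show these 3 arrangements, with GGAG in capitals within the stretch searched.
let-7f: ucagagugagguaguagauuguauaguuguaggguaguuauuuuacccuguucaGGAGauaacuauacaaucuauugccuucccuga
let-7k: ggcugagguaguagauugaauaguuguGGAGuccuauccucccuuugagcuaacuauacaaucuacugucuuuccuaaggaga
let-7a-3: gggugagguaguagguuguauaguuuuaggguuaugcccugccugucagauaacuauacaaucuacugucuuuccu

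At any position of the given strand, GGAG was held by 90.9% of the 11 let-7 hairpins, novel_130 included (median length 83 bases). It was held by 28.3% of the 198 other hairpins of the table (median length 84 bases). The motif was chosen from what is known of let-7 precursors, and the let-7 hairpins are related sequences. The difference between these shares is therefore no test. Only the hairpin strand was searched, since the hairpin is the molecule that is bound. A match is a description of these letters in the listed sequences, most of which are those of chicken. The abundant letters let-7f, let-7i and let-7g all have the motif next to UAACU, and so do the rarer let-7b and let-7c. The 3 listed copies that hold let-7a-5p cover all 3 arrangements and cannot be separated by counts of that row.

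Some miRNAs share a transcript with let-7a or let-7c copies in vertebrate genomes. Their 5p rows had lower ratios of CT to CC than the let-7 rows beside them. miR-99a-5p, a neighbour of let-7c, had 19030 counts in CC and 10373 in CT (3297 and 1967 CPM) and was 1.68-fold lower (1.64 to 1.72), beside 1.12-fold for let-7c-5p. miR-125b-5p, listed under the hairpin miR-125b-2 of the same cluster, had 6734 and 4704 counts and was 1.31-fold lower (1.26 to 1.36). Whether other hairpins also add to the counts of miR-125b-5p was not tested, so that row may not stand for this cluster alone. miR-100-5p, a neighbour of let-7a-2, had 37537 and 27674 counts and was 1.24-fold lower (1.22 to 1.26), beside 1.04-fold for let-7a-5p. The sequence of let-7a-5p is in 3 of the listed hairpins, so its row may not stand for let-7a-2 alone. The intervals of the let-7 rows did not overlap those of the 5p rows set beside them. miR-99a-5p and miR-100-5p are themselves 1 base apart, and the part of mismatched reads in their counts was not tested. The rarer arms had too few counts to compare, except miR-125b-3p at 90.3 and 81.4 CPM, whose interval included a ratio of 1. miR-125b-3p was 1.11-fold lower in CT (0.974 to 1.26), not lower than let-7c-5p at 1.12-fold.

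The rows whose ratio of CT to CC was nearest to that of the family total, among 75 other rows with at least 1000 counts, were miR-122-5p of hepatocytes (log2 ratio -0.012), miR-2954 (0.0036) and miR-20a-5p (0.0076). The likeness is a difference in log2 ratio of at most 0.014 over 2 libraries, and 9 of the 75 rows lay within 0.05 of the family. The exact intervals were wider, at -0.131 to 0.108 for miR-122-5p, -0.079 to 0.086 for miR-2954 and -0.049 to 0.064 for miR-20a-5p. Which rows are nearest is therefore not settled by these counts.

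Summed markers of several cell types differed between the libraries, while the liver rows were nearly equal. Epithelial rows (miR-194, miR-200a, miR-200b, miR-215 and miR-429, 9 rows, all above 0 in both libraries) summed to 453489 CPM in CC and 509192 in CT, with 7 rows higher and 2 lower. Most of this sum was 1 row, miR-215-5p, at 405612 and 435164 CPM, 1.07-fold higher in CT. Endothelial miR-126, with 2 rows, summed to 9301 and 5451 CPM, 1.71-fold lower in CT, and 7 muscle rows of miR-1, miR-133 and miR-206 to 8756 and 6530 CPM, 1.34-fold lower, with 3 rows higher and 4 lower. No row carried the name miR-192, miR-143 or miR-145, and predicted rows were not assigned to these lists. Whether any of the 42 predicted rows is one of these miRNAs was not tested, so the epithelial and muscle sums may be incomplete. The missing part could exceed the muscle sum, since the predicted row novel_1 alone was more abundant in CC than miR-21-5p (76603 CPM). The 5 pancreatic rows of miR-216 and miR-217 summed to 54.9 and 2563 CPM, all higher in CT. The 5 blood rows summed to 131 and 147 CPM, with 2 rows higher and 3 lower in CT, and the 2 liver rows to 209.6 and 207.5 CPM. Nearly all of the liver sum was miR-122-5p (208.6 and 206.9 CPM), named above for its nearness to the family total. In whole tissue, fewer cells of a type and less RNA per cell cannot be told apart. The part of these shifts in the let-7 values was not tested.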

How the data were processed

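Small RNA of 20 to 30 nt was cut from a 15% gel of 10 µg of total RNA, per the labels' protocols. The authors deposited read counts and TPM for each mature miRNA in both libraries. The deposited TPM equals the count per 1000000 counts of the table, with no term for length, and is called CPM here. The aligner, miRNA database and build are not stated there.

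Members and lists were chosen with earlier results of these data known. Named besides the let-7 rows are rows with the let-7 seed, miR-99a, miR-100, miR-125b, miR-196 and miR-202 rows, the 3 nearest in ratio, the neighbours of the leading row in mean CPM and miR-215-5p, at 405612 CPM in CC and 435164 in CT the most abundant row. Ratios have exact conditional and shares exact binomial (Clopper-Pearson) 95% intervals. With 1 library per group there was no test between groups.

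Alternatives used the TMM scaling of edgeR 4.0.16, the size factors of DESeq2 1.42.0 (median of ratios), other totals and other minimums. Computation used Python 3.11.15, scipy 1.17.1 and R 4.3.3. On simulated Poisson counts for 149 rows, 40 of them changed, 95.5% of intervals held the true ratio. The simulation held counting error alone, so it checks how the intervals were computed and says nothing of variation between ducks.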

Additional observations from a re-analysis of the deposited data

How the results depend on the processing

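The log2 ratio of the family total, -0.0064, was -0.051 with TMM factors, -0.071 with median-of-ratios size factors and 0.053 when the 10 most abundant miRNAs were left out of the totals. It was -0.097 without novel_1 in the totals, a setting chosen after seeing the data, as were totals without the miR-216 and miR-217 rows and adding novel_130 to the counts by direction and the median. TMM factors shifted all log2 ratios by -0.05 and size factors by -0.06. The share of the family rose to 24.9% in CC and 25.2% in CT when the 10 most abundant other miRNAs were left out, and to 4.73% and 4.41% without predicted rows. With at least 1 count in each library in place of the minimum, 6 rows were higher and 7 lower in CT. The median log2 ratio was -0.20 with size factors. The 3p share of let-7a was 0.031% in CC and 0.027% in CT with let-7a-2-3p alone. These movements follow from the totals and rows used. The remaining 49 values, among them the shares of 8 letters without 3p arms (let-7j, with a 3p row alone, gave no such value), moved by less than counting error or, for counts, by at most 1.5 times. No paired analysis was possible because each group has 1 library. Depth limits the 3p arms and let-7d, which had at most 58 counts in a library.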

Other observations

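Rows related to let-7 by their letters but not by name were rare. miR-196-5p, whose seed AGGUAGU overlaps that of let-7 by a shift of position, had 1 count in CC and 4 in CT, and no row matched the name miR-202. The 4 seeds of the let-7 3p arms were found in no row outside the family, so no other miRNA of the table shares them.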
